A study of Mus musculus with 14 samples.

Results

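Uninduced control cells at day 2 are described here against untreated control cells at day 0, across every gene with enough reads to be tested. The cells are KL974, a mouse acute myeloid leukemia (AML) line whose labels give the genotype Trp53R172H;shMll3;shNf1, that is a mutant Trp53 and hairpins against Mll3 (Kmt2c) and Nf1, in all libraries. They were kept in RPMI medium with serum and the mouse cytokines IL3, IL6 and SCF. All had received a lentivirus from which doxycycline turns on both blue fluorescent protein (BFP) and a short hairpin RNA, here the control hairpin shRen713, named for Renilla luciferase, which mouse cells lack. The 2 libraries of interest came from cells given doxycycline, taken at day 2 and sorted by flow cytometry as BFP negative, labelled uninduced. Libraries were chosen by their titles. The comparators are 2 libraries of untreated cells at day 0, whose titles name no sort. Together they make 4 of the series' 14 libraries. A pair of further groups, each of 2 libraries, both doxycycline treated and sorted, are set beside them: BFP negative cells at day 4 and BFP positive (induced) cells at day 2. Time, doxycycline and sorting changed together between the day 2 and the day 0 libraries and cannot be told apart. All libraries come from a single cell line, so they say nothing of how lines differ. No label says that replicates are separate cultures, so the spread behind the p-values may be technical. That spread was estimated over all groups of the series and shared across genes, not from the 4 compared libraries alone.

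A doxycycline-inducible hairpin linked to a fluorescent reporter lets cells that express the hairpin be separated from cells in the same dish that do not. BFP negative cells of such a culture can serve as an internal control, because they have met the drug without making the hairpin. Several of the gene groups below answer to the state of the culture: hypoxia-inducible factor (HIF) drives genes of low oxygen and glycolysis, SREBP2 drives sterol synthesis when membrane cholesterol is short, and NRF2 drives antioxidant genes under oxidative stress.

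The BFP negative day 2 libraries held 2342968 and 4342673 counts, and the day 0 libraries 2831835 and 2567604. After a filter on low counts 10791 genes were tested, with edgeR's quasi-likelihood test over all 14 libraries, and genes with an adjusted p (Benjamini-Hochberg) under 0.05 are named called. Levels are counts-per-million (CPM), and log2 fold changes are BFP negative day 2 over day 0 with standard errors. The day 2 replicates differed from each other by more than the day 0 replicates did, with a chi-square per degree of freedom of 2.48 against 1.16 (1 is counting noise alone). Of the marker genes of the myeloid lineage, Kit measured 578 and 529 CPM at day 2 and 554 and 497 at day 0. Ptprc, which encodes the leukocyte antigen CD45, was low at 14.1 and 8.98 CPM at day 2 and 6.36 and 6.23 at day 0. Mpo, Cd33 and Cd34 had 0 counts in the 4 libraries, where a count of 0 allows up to 3 counts, and Spi1 had 1 and 8 counts at day 2 and 2 and 2 counts at day 0. Mpo, Cd33 and Spi1, which mark granulocyte and monocyte cells, were thus at or near 0 in cells labelled AML.

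Across the genome, 1112 of the 10791 genes (10.3%) were called, 575 higher at day 2 (5.33%) and 537 lower (4.98%). Changes of more than 2-fold were fewer, 122 higher and 56 lower, and the median change over all tested genes was 0.01 on the log2 scale. Most called genes moved by less than 2-fold, with a median absolute log2 change of 0.48. Without day 0 replicate 1 there were 438 calls, without day 0 replicate 2 there were 429, without day 2 replicate 2 there were 330 (201 of them higher), and with DESeq2 there were 293.

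**Figure D1:**
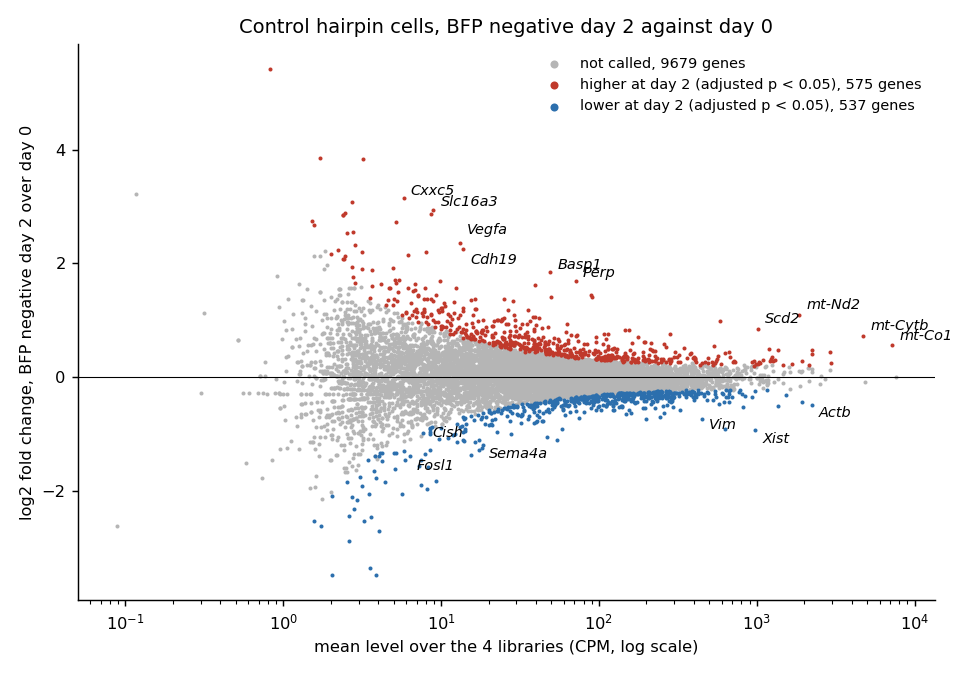
Log2 fold change of BFP negative day 2 over day 0 (vertical axis) against the mean level over the 4 libraries in CPM (horizontal axis, log scale), 1 point per tested gene. The 575 genes called higher at day 2 and the 537 called lower spread about evenly around 0, and Cxxc5, Slc16a3, Vegfa and Cdh19 stand highest among the genes labelled in the plot.

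The genes that rose most at day 2 included Vegfa, the vascular endothelial growth factor, Slc16a3, the lactate exporter MCT4, and Cxxc5, a CXXC zinc finger protein. Vegfa (chr17:46016993-46032369, GRCm38) measured 21.8 and 22.2 CPM in the BFP negative day 2 libraries, against 4.26 and 4.30 CPM at day 0. Its log2 fold change was 2.35 ± 0.28 (5.12-fold, adjusted p = 5.15e-09). Slc16a3 (chr11:120948480-120960868) had 15.4 and 16.3 CPM at day 2 and 2.48 and 1.56 CPM at day 0, a log2 fold change of 2.94 ± 0.36 (adjusted p = 1.06e-08). Both genes were low in every library, and both day 2 libraries lay far above both day 0 libraries. Cxxc5 (chr18:35829818-35861687) measured 11.6 and 9.33 CPM at day 2 against 0.710 and 1.56 CPM at day 0, from 27 and 40 counts against 2 and 4 counts. Its fold change of 3.15 ± 0.49 on the log2 scale (adjusted p = 3.62e-06) rests on those few day 0 counts, and its locus overlaps AC141471.2 on the same strand and Gm29417 on the other, so reads may be shared.

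Better-expressed genes rose by 2.66 to 3.59-fold. Basp1, a membrane-bound signalling protein of growth cones that is also a transcriptional cofactor of WT1, had 75.8 and 77.4 CPM at day 2 and 22.00 and 20.7 CPM at day 0 (log2 fold change 1.84 ± 0.15, adjusted p = 8.49e-15). Perp, a desmosome-associated membrane protein and p53 target, had 105 and 112 CPM at day 2 against 35.8 and 31.2 CPM at day 0 (1.70 ± 0.13, adjusted p = 1.98e-16). Perp was the single called gene of the 14 tested p53 targets (7.14%), near the 5.33% of all tested genes called higher. Ddit4, which encodes the mTORC1 inhibitor REDD1, measured 64.2 and 55.7 CPM at day 2 and 22.4 and 15.6 CPM at day 0 (1.63 ± 0.17, adjusted p = 2.55e-11). P4ha1, a subunit of the prolyl 4-hydroxylase that modifies collagen, measured 70.2 and 75.1 CPM at day 2 and 29.1 and 25.8 CPM at day 0 (1.41 ± 0.14, adjusted p = 1.07e-11). In each of these genes the 2 day 2 libraries lay close together and at least 2-fold above the higher day 0 library.

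The other leading genes that rose had varied roles. Ly6e, a GPI-anchored surface protein, had 136.2 and 124 CPM at day 2 and 44.4 and 50.4 CPM at day 0, a log2 fold change of 1.45 ± 0.12 (adjusted p = 7.32e-15). Apoe, the lipid carrier apolipoprotein E, had 138.3 and 127.1 CPM at day 2 and 55.0 and 43.4 CPM at day 0 (1.42 ± 0.12, adjusted p = 2.21e-14). Cdh19, a cadherin, measured 21.4 and 24.2 CPM at day 2 against 4.61 and 5.08 CPM at day 0 (2.25 ± 0.27, adjusted p = 4.92e-09). The groups did not overlap for any of these genes. The rule for naming genes asked for this, and in 26.8% of all tested genes both day 2 libraries lay above both day 0 libraries. Cerk, the ceramide kinase, rose by 1.37 ± 0.23 on the log2 scale, Chst1, a sulfotransferase, by 1.38 ± 0.21, Cited1, a CBP/p300-binding cofactor, by 1.58 ± 0.27, and Zic2, a zinc finger transcription factor, by 1.35 ± 0.24. Adjusted p-values of these 4 genes ran from 1.63e-06 for Chst1 to 5.5e-05 for Zic2. Cerk overlaps the antisense gene Gm15569, and whether counting used strand is not known here.

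The genes that fell most were weakly expressed at day 0. Fosl1, which encodes the AP-1 subunit FRA-1, fell to 8.14 and 8.86 CPM at day 2, against 20.6 and 24.2 CPM at day 0, a log2 fold change of -1.37 ± 0.24 (adjusted p = 2.74e-05). B4galt6, a lactosylceramide synthase, had 8.56 and 11.2 CPM at day 2 and 21.3 and 28.5 CPM at day 0 (-1.27 ± 0.22, adjusted p = 4.66e-05). Sema4a, a semaphorin, had 13.3 and 9.10 CPM at day 2 and 25.6 and 24.6 CPM at day 0 (-1.24 ± 0.22, adjusted p = 4.29e-05). In these 3 genes and in Pea15a, a death effector domain protein that binds ERK, every day 2 library lay below every day 0 library. The rule for naming genes asked for this, and 24.4% of all tested genes met it. Pea15a had 10.7 and 11.7 CPM at day 2 and 24.1 and 27.7 CPM at day 0 (-1.19 ± 0.21, adjusted p = 5.63e-05). Fosl1 overlaps Ccdc85b on the other strand, and Pea15a overlaps Dcaf8.

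Other leading genes that fell lost their call in some settings. Cish, a STAT5-induced brake on cytokine receptor signalling, had 11.1 and 10.96 CPM at day 2 and 21.6 and 26.2 CPM at day 0 (log2 fold change -1.11 ± 0.22, adjusted p = 0.000354 with edgeR and 0.0603 with DESeq2), and it overlaps Gm17040 and Gm17041. Col1a2, a type I collagen chain, had 11.6 and 9.33 CPM at day 2 and 23.8 and 20.7 CPM at day 0 (-1.13 ± 0.23, adjusted p = 0.000358, and 0.0638 without day 2 replicate 2). Yap1, the Hippo pathway coactivator, had 5.995 and 9.10 CPM at day 2 and 16.3 and 16.01 CPM at day 0 (-1.02 ± 0.25, adjusted p = 0.00396 with edgeR and 0.0816 with DESeq2), and it overlaps Gm20416. The other 5 leading genes that fell were Gm29666, Mir6236, Gm9843, Fam219a and Gm15564, with log2 fold changes between -1.14 and -1.05. Each of the 5 lost its call with DESeq2 (adjusted p 0.134 to 0.382) and without day 2 replicate 2 (edgeR adjusted p 0.0845 to 0.304). Gm9843 (0.171 without day 0 replicate 2) and Fam219a (0.159 without day 0 replicate 1) also lost it without a day 0 library. Gm9843 is a processed pseudogene, Mir6236 a miRNA locus and Gm15564 an antisense gene, Gm29666 overlaps 4930513L16Rik and Fam219a overlaps Fam219aos, so the source of their reads is uncertain.

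**Figure D2:**
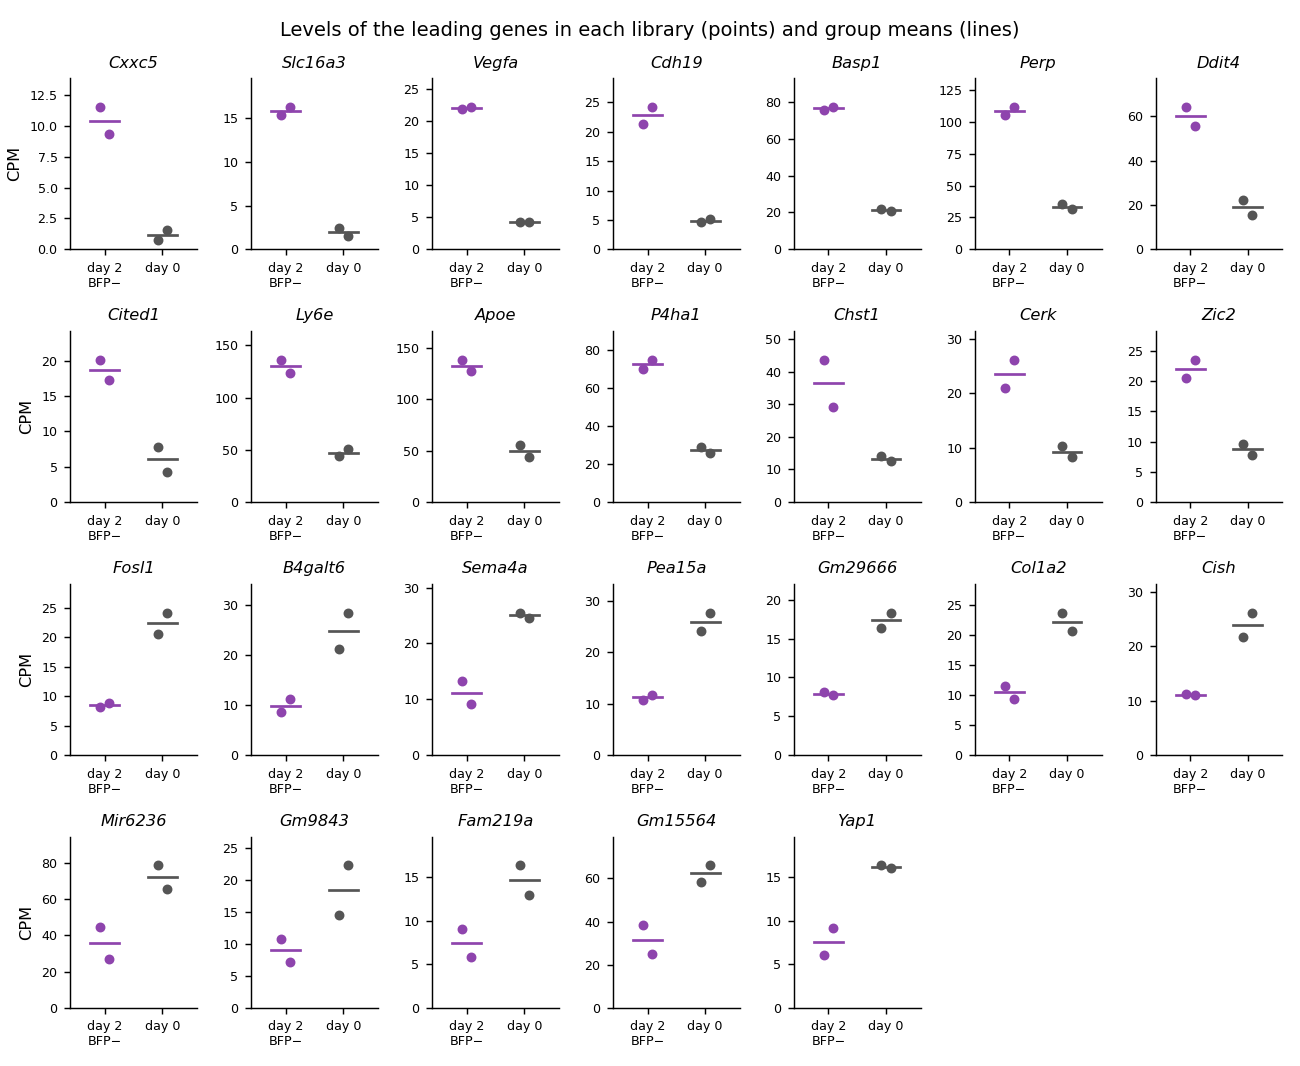
Level in CPM (vertical axes from 0) of each leading gene in the 2 BFP negative day 2 libraries (left, purple) and the 2 day 0 libraries (right, grey), with points for libraries and lines for group means. Groups do not overlap in any panel, which the rule for naming genes asked for the 12 genes each way (among all tested genes 26.8% lay above and 24.4% below in both day 2 libraries), and Vegfa, at 21.8 and 22.2 CPM against 4.26 and 4.30 CPM, is among the genes with the least spread within groups.

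A subset of hypoxia response genes rose at day 2. Of 28 tested members of the list, 11 were called higher and 0 lower, where 5.33% of all tested genes were called higher, and the median log2 fold change was 0.44 against 0.01 over all genes. Vegfa, P4ha1 and Ddit4, given above, led the list. Pdk1, the kinase that holds back pyruvate dehydrogenase, measured 54.0 and 57.6 CPM at day 2 and 29.4 and 32.4 CPM at day 0, a log2 fold change of 0.86 ± 0.14 (adjusted p = 1.47e-05). Selenbp1, a selenium-binding methanethiol oxidase, had 143.4 and 125 CPM at day 2 and 96.9 and 90.6 CPM at day 0 (0.50 ± 0.10, adjusted p = 0.000561). The remaining called members were Ndrg1, Pfkfb3, Egln1, Fam162a, Kdm3a and Ero1l, and each lost its call when at least 1 of the day 0 libraries was left out (adjusted p 0.0542 for Kdm3a to 0.328 for Ero1l). Ndrg1, a growth-arrest gene, rested on 3.85 and 3.50 CPM at day 2 and 0.355 and 1.17 CPM at day 0. Egln1, the oxygen-sensing prolyl hydroxylase PHD2, had 20.98 and 21.2 CPM at day 2 and 12.8 and 14.4 CPM at day 0 (adjusted p = 0.044). The count of called members was 6 without day 0 replicate 1, 6 without day 0 replicate 2 and 6 with DESeq2. At an unadjusted edgeR p under 0.05, 15 members were higher and 2 lower, and DESeq2 called 0 lower. Slc2a1, the glucose transporter GLUT1, did not pass the test (log2 fold change 0.19), nor did Bnip3 (1.44, at 1.71 and 4.66 CPM at day 2 against 1.07 and 1.56 at day 0).

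A subset of the genes of glycolysis and lactate export rose. Of 18 tested genes of glycolysis and lactate export, 9 were called higher and 0 lower, with a median log2 fold change of 0.37. Among all tested genes 5.33% were called higher. Slc16a3 led, and Pfkl, the liver-type phosphofructokinase that commits glucose to glycolysis, had 311 and 308 CPM at day 2 against 213 and 198 CPM at day 0 (0.59 ± 0.08, adjusted p = 7.22e-07). Tpi1, triosephosphate isomerase, had 613 and 658 CPM at day 2 and 419 and 451 CPM at day 0 (0.55 ± 0.08, adjusted p = 9.78e-07). Eno1, the main enolase, had 783 and 765 CPM at day 2 and 567 and 564 CPM at day 0 (0.45 ± 0.07, adjusted p = 1.17e-05). Ldha, the lactate dehydrogenase subunit that favours lactate, had 702 and 738 CPM at day 2 and 538 and 541 CPM at day 0 (0.42 ± 0.08, adjusted p = 6.22e-05). Day 2 libraries lay above day 0 libraries in each of these genes, as they did in 26.8% of all tested genes. The first step, catalysed by the hexokinases Hk1 (-0.08) and Hk2 (0.15), and the last, catalysed by Pkm (0.10), did not pass the test, nor did Gapdh (0.08). Eno2, Pgam1, Pgk1 and Gpi1 were the other called members, and each lost its call without 1 or more libraries: Eno2 without day 0 replicate 1 (adjusted p 0.107) or day 2 replicate 2 (0.0516), Pgam1 without day 0 replicate 2 (0.298) or day 2 replicate 1 (0.163), Pgk1 without day 0 replicate 1 (0.176), day 0 replicate 2 (0.0999) or day 2 replicate 2 (0.313), and Gpi1 without any 1 of the 4 libraries (0.0516 to 0.193). DESeq2 called 5 members higher and 0 lower, and at an unadjusted p under 0.05 edgeR found 10 higher and 0 lower. Tpi1 overlaps Spsb2, and Aldoa was not matched because its symbol has 2 rows in the table.

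Sterol synthesis was the third group that rose. Of 25 tested members, 11 were called higher and 0 lower, with a median log2 fold change of 0.46, and 24 of the 25 had a positive change. Among all tested genes 5.33% were called higher. DESeq2 called 8 higher and 0 lower, and 18 were higher and 0 lower at an unadjusted edgeR p under 0.05. Sqle, squalene epoxidase, had 256 and 259.5 CPM at day 2 and 162 and 179 CPM at day 0 (0.60 ± 0.09, adjusted p = 7.79e-07). Msmo1, the methylsterol monooxygenase, had 80.9 and 85.8 CPM at day 2 and 47.2 and 53.5 CPM at day 0 (0.74 ± 0.13, adjusted p = 2.19e-05). In both genes the lower day 2 library lay above the higher day 0 library, which was also so in 26.8% of all tested genes. Among the other called members, Cyp51, Acat2 and Stard4 had log2 fold changes of 0.54, 0.69 and 0.50, and Cyp51 overlaps Akap9. Hmgcs1 (adjusted p 0.0545), Fdft1 (0.338), Pmvk (0.074) and Nsdhl (0.0906) lost their calls without day 2 replicate 2, and Fdft1 (0.0627) and Pmvk (0.28) also without day 0 replicate 1, as did Pmvk without day 0 replicate 2 (0.0635) and without day 2 replicate 1 (0.108). Insig1 (0.32) and Srebf2 (0.21) did not pass the test.

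The promoters of called sterol genes are shown because this group had the highest share of members called in 1 direction among hypoxia, sterol and ATF4 lists (44.0%). They are RefSeq sequences of GRCm38.p6, 250 bases before to 50 after the start, on the gene's strand. Capitals mark the letters TCACNCC on either strand, a form of the sterol regulatory element. Msmo1 lies at chr8:64733529-64733828 (minus strand), Cyp51 at chr5:4104648-4104947 (minus strand), Acat2 at chr17:12960676-12960975 (minus strand) and Nsdhl, a sterol dehydrogenase, at chrX:72918271-72918570 (plus strand).
Msmo1: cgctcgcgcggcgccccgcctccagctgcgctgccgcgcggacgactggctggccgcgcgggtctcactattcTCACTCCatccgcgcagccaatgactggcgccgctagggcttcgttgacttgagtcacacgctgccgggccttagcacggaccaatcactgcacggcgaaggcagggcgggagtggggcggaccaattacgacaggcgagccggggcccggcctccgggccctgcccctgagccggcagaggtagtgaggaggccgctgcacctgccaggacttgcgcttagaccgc
Cyp51: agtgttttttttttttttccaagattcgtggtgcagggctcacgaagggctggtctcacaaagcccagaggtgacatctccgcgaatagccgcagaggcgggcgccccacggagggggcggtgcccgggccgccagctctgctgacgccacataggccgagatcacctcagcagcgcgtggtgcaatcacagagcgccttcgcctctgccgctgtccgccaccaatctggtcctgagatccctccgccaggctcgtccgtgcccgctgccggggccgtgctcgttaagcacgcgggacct
Acat2: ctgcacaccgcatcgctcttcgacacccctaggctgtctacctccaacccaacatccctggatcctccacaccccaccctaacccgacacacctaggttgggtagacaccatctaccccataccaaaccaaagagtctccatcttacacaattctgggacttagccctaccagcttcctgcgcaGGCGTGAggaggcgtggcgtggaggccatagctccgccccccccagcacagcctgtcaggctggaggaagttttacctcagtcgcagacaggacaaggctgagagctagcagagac
Nsdhl: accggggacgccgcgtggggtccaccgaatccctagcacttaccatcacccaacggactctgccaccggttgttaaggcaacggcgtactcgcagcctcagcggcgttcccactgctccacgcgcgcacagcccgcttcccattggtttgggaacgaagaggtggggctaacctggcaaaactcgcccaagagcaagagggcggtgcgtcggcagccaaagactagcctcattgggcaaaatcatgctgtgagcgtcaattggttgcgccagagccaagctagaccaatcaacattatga
Of these 4 promoters, Msmo1 and Acat2 held 1 match each and Cyp51 and Nsdhl held 0. Over all 17 tested list members with a promoter in the table, 4 held a match, 3 of the 6 called and 1 of the 11 not called. The letters occurred in 17.6% of the 27025 genes with a promoter and in 19.2% of the 8290 tested ones. A match is a run of letters and not a shown binding site.

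The promoter of P4ha1 and the window at the second listed start of Vegfa are shown as examples of the hypoxia genes, chosen after their values were seen. That Vegfa window lies inside the gene (chr17:46016993-46032369) and not at its annotated start. Capitals mark ACGTG or GCGTG on either strand, the core of the hypoxia response element. P4ha1 lies at chr10:59323046-59323345 (plus strand) and held 3 matches, and this Vegfa start at chr17:46025114-46025413 (minus strand) held 2.
P4ha1: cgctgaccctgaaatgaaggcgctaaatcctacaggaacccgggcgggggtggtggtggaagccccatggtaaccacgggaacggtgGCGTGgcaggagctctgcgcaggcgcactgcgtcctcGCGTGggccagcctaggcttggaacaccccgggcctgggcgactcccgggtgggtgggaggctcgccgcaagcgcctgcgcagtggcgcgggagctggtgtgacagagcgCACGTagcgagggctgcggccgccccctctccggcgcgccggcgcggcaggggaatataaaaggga
Vegfa: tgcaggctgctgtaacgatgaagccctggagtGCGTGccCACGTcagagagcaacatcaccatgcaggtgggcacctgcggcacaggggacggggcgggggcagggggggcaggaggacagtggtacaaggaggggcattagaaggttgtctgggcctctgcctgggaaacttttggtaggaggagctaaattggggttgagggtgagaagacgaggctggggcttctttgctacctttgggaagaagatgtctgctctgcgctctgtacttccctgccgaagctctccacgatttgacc
The first listed Vegfa start, at chr17:46032328-46032627 (minus strand), contains the annotated start of the gene and held 0 matches. The letters marked in the printed Vegfa window therefore lie within the transcribed gene. Read in codons from its second base, the window runs without a stop codon through both matches and spells part of the VEGF-A protein. These matches are thus coding letters and not promoter matches. In the counts that follow, Vegfa has a match only through this window. This short motif was present in 46.7% of all genes with a promoter and 69.7% of tested ones, and in 20 of the 20 hypoxia members with a promoter, called (9 of 9) or not (11 of 11), so it did not separate those that rose from those that did not.

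The listed transcripts of the mitochondrial genome rose together. All 9 tested members of the list were called higher by edgeR and 6 by DESeq2, with a median log2 fold change of 0.49. Among all tested genes edgeR called 5.33% higher. In all 10 mitochondrial genes were tested, and the list does not cover the whole mitochondrial genome. The DESeq2 test did not call mt-Nd1 (adjusted p 0.0576), mt-Nd6 (0.13) and mt-Rnr1 (0.16). The edgeR calls of mt-Nd6 and mt-Rnr1 were also lost without day 0 replicate 2 (0.0928 and 0.135) or day 2 replicate 2 (0.0771 and 0.113), and that of mt-Rnr1 without day 0 replicate 1 (0.0862) or with the gene length offset (0.0628). mt-Nd2, a complex I subunit, had 2415 and 2644 CPM at day 2 and 1182 and 1182 CPM at day 0, a log2 fold change of 1.10 ± 0.08 (adjusted p = 6.96e-17). mt-Cytb, the cytochrome b of complex III, had 5685 and 6075 CPM at day 2 and 3679 and 3400.0 CPM at day 0 (0.73 ± 0.07, adjusted p = 4.51e-12). mt-Co1, a catalytic subunit of complex IV, had 7877 and 9318 CPM at day 2 and 6005 and 5619 CPM at day 0 (0.57 ± 0.08, adjusted p = 1.32e-07). The groups did not overlap in any of these 3, and in 26.8% of all tested genes both day 2 libraries lay above both day 0 libraries. mt-Rnr2, the large mitochondrial ribosomal RNA, rose by 0.99 ± 0.09 (adjusted p = 2.84e-13). The share of all counts that was mitochondrial was 2.33% and 2.57% at day 2 and 1.63% and 1.56% at day 0. That share is itself a sign used for RNA and cell quality, and the part of such quality in the other results was not tested. Leaving the mitochondrial genes out gave 1101 calls and 11 called sterol genes. It changes mainly the scaling, so it cannot show whether quality acted on nuclear genes. Nuclear genes of the respiratory chain and ATP synthase moved less, with 6 of 75 called higher by edgeR, 0 lower and a median of 0.12. The 6 were 8% of the list, beside 5.33% of all tested genes called higher. DESeq2 called 0 of the 75, and at an unadjusted edgeR p under 0.05, 19 were higher and 0 lower.

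In fatty acid synthesis, 2 of 14 tested members were called higher and 1 lower, where 5.33% of all tested genes were called higher and 4.98% lower. Scd2, a stearoyl-CoA desaturase, had 1339 and 1270.0 CPM at day 2 and 787 and 657 CPM at day 0 (0.85 ± 0.08, adjusted p = 9.08e-14). Elovl5, a fatty acid elongase, had a log2 fold change of 0.47 ± 0.11 (adjusted p = 0.00279, and 0.133 without day 0 replicate 2). Fasn, the fatty acid synthase, had 477 and 359 CPM at day 2 and 511 and 502 CPM at day 0 (-0.29 ± 0.09, adjusted p = 0.019). The Fasn difference was lost without day 0 replicate 1 (0.142), day 0 replicate 2 (0.097) or day 2 replicate 2 (0.671).

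A subset of NRF2 targets fell. Of 18 tested members, 7 were called lower and 0 higher, where 4.98% of all tested genes were called lower, with a median log2 fold change of -0.19. At an unadjusted edgeR p under 0.05, 9 were lower and 0 higher, and DESeq2 called 4 lower and 0 higher. Txnrd1, the cytosolic thioredoxin reductase, had 86.1 and 108 CPM at day 2 and 143.4 and 153 CPM at day 0 (-0.58 ± 0.10, adjusted p = 2.74e-05). Srxn1, sulfiredoxin, had 45.8 and 48.5 CPM at day 2 and 70.6 and 71.5 CPM at day 0 (-0.58 ± 0.13, adjusted p = 0.00104 with edgeR and 0.0504 with DESeq2). Fth1, the ferritin heavy chain, had 1392 and 1353 CPM at day 2 and 1672 and 1724 CPM at day 0 (-0.31 ± 0.07, adjusted p = 0.00162, and 0.0545 without day 0 replicate 2). Day 2 libraries lay below day 0 libraries in all 3, as they did in 24.4% of all tested genes. Gclc, the catalytic subunit for glutathione synthesis, had 149.9 and 138.3 CPM at day 2 and 181 and 191 CPM at day 0 (-0.37 ± 0.09, adjusted p = 0.00347), and lost the call without day 0 replicate 2 (0.0839) or day 2 replicate 2 (0.113). The count of called members was 4 without day 0 replicate 1, 3 without day 0 replicate 2 and 4 without day 2 replicate 2. Gclm (-0.01) and Slc7a11 (0.09), also well-known NRF2 targets, did not pass the test.

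Some ribosome biogenesis genes fell slightly. Of 31 tested members, 7 were called lower and 1, Npm1, higher, with a median log2 fold change of -0.15. Among all tested genes 4.98% were called lower and 5.33% higher. Polr1b, a core subunit of RNA polymerase I, had 174 and 167 CPM at day 2 and 235 and 221 CPM at day 0 (-0.42 ± 0.08, adjusted p = 0.000335). Rrp12, a processing factor of both ribosomal subunits, had 108 and 96.8 CPM at day 2 and 141.9 and 141.4 CPM at day 0 (-0.48 ± 0.10, adjusted p = 0.000498, and 0.0575 without day 2 replicate 2). Bysl, a small-subunit assembly factor that overlaps Ccnd3, had 95.1 and 94.7 CPM at day 2 and 121 and 142.2 CPM at day 0 (-0.47 ± 0.10, adjusted p = 0.00112, and 0.109 without day 0 replicate 2). Utp20, of the small-subunit processome, had 114 and 99.8 CPM at day 2 and 142.7 and 142.6 CPM at day 0 (-0.43 ± 0.10, adjusted p = 0.00223, and 0.135 without day 2 replicate 2). Every day 2 library lay below every day 0 library in these 4 genes, which was also so in 24.4% of all tested genes. The number of called members was 3 without day 0 replicate 2 and 4 without day 2 replicate 2.

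Genes of signalling moved both ways. Of 24 tested immediate early and ERK feedback genes, 5 were called higher and 2 lower, where 5.33% of all tested genes were called higher and 4.98% lower. Egr1, an immediate early transcription factor, had 50.1 and 55.5 CPM at day 2 and 24.1 and 26.95 CPM at day 0 (1.06 ± 0.16, adjusted p = 1.63e-06). Fos had 8 and 13 counts at day 2 and 1 and 0 counts at day 0. Etv5, an ETS factor downstream of ERK, fell by 0.57 ± 0.11 on the log2 scale (adjusted p = 0.000275, and 0.0826 without day 0 replicate 1), and Fosl1 is given above. Fos, like Fosl1 an AP-1 subunit, was called higher, a call lost without day 0 replicate 2 (adjusted p 0.113) or day 2 replicate 2 (0.0516). Of 14 tested cytokine JAK-STAT targets, Pim3 was called higher and Cish lower, each 7.14% of the list and near the shares of all tested genes. Pim3 lost its call without day 0 replicate 1 or day 2 replicate 1.

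Proliferation genes were called about as often as all tested genes (5.33% higher, 4.98% lower) or less. Of 38 DNA replication genes, 0 were called higher and 2 lower by edgeR, and of 30 mitosis genes, 1 was called higher and 0 lower, while DESeq2 called 0 in both lists, with medians of -0.02 and -0.02. Among the 12 tested BCL2 family genes and the 12 adhesion integrins edgeR and DESeq2 both made 0 calls, and at an unadjusted edgeR p under 0.05 there were 3 BCL2 family genes (1 higher, 2 lower) and 2 integrins (1 higher, 1 lower). The smallest absolute log2 change among all called genes was 0.20.

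Markers of other blood lineages were checked because a sort could change the makeup of the culture. None of 20 granulocyte or 19 lymphoid markers was tested, with summed levels of 0.427 to 1.15 CPM at day 2 and 1.17 to 1.77 at day 0 for granulocyte genes and 0.854 to 3.92 CPM at day 2 and 0.390 to 2.12 at day 0 for lymphoid genes. Of the monocyte and macrophage list 2 genes were tested and 0 called by edgeR, by DESeq2 or at an unadjusted p under 0.05, with a sum of 8.54 to 8.98 CPM at day 2 and 5.84 to 8.83 at day 0. Some erythroid, megakaryocyte and mast cell genes were abundant in all 4 libraries. The mast cell, basophil and eosinophil list summed to 1688 to 1706 CPM at day 2 and 1413 to 1496 at day 0. Of its 18 genes only 7 passed the filter on low counts, and 7 had 0 counts in all 4 libraries. Of the 7 tested genes 3 were called higher and 0 lower. Gata2, a transcription factor of progenitors and mast cells, had 236 and 207 CPM at day 2 and 143.4 and 125 CPM at day 0 (0.71 ± 0.09, adjusted p = 4.07e-08). Of 17 tested erythroid and megakaryocyte genes 5 were called higher and 1 lower, where 5.33% of all tested genes were called higher and 4.98% lower. The list as a whole did not move 1 way, with 8 positive and 9 negative changes and a median of -0.03. It summed to 3499 to 3620 CPM at day 2 and 3410 to 3482 at day 0. Klf1, the erythroid master factor, had 250.1 and 259.5 CPM at day 2 and 179.6 and 193 CPM at day 0 (0.46 ± 0.09, adjusted p = 0.000122). Hbb-bs, a beta-globin gene, was called lower (edgeR adjusted p = 0.0062), a call lost with DESeq2 and without day 0 replicate 2. Gata1 (-0.15) did not pass the test. In bulk RNA, more cells of a type and more RNA per cell cannot be told apart, and the part of these markers in the other results was not tested.

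**Figure D3:**
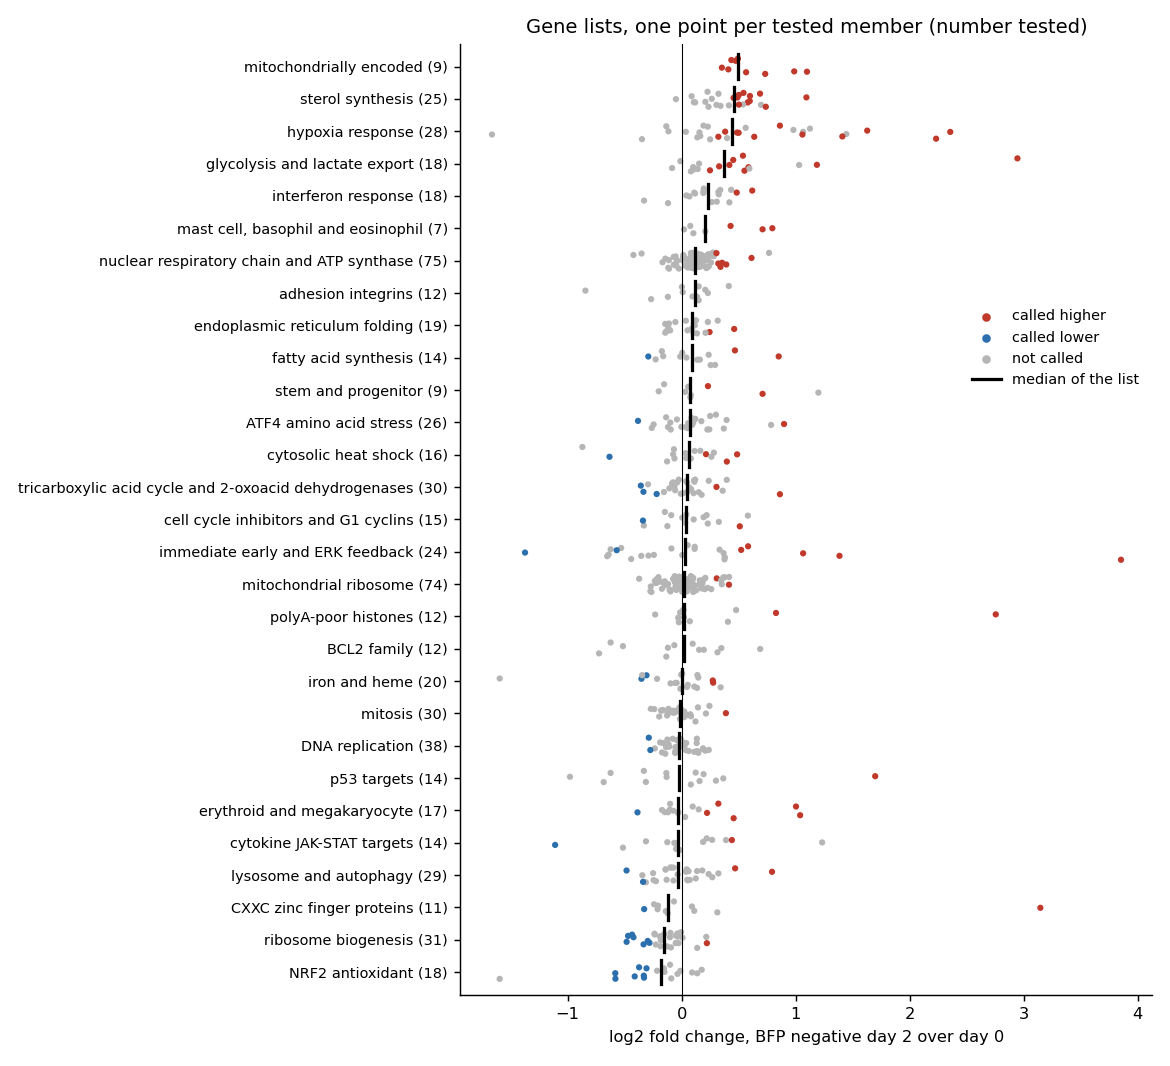
Log2 fold change of BFP negative day 2 over day 0 (horizontal axis) for every tested member of the gene lists, 1 row per list with the number tested, ordered by median (black bar). Mitochondrially encoded, sterol, hypoxia and glycolysis lists have medians of 0.37 to 0.49 and no member called lower, and of the lists plotted NRF2 and ribosome biogenesis have the lowest medians, -0.19 and -0.15.

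Genes that the line or the series was engineered to change were examined next. Ogdh, the 2-oxoglutarate dehydrogenase subunit targeted by other hairpins of the series and not by the control hairpin, had 266 and 211 CPM at day 2 and 291 and 312 CPM at day 0, a log2 fold change of -0.36 ± 0.09 (adjusted p = 0.00302). The 2 day 2 libraries differed from each other, and without day 2 replicate 2 the adjusted p was 0.316, and without day 0 replicate 2 it was 0.0981. Nf1 had 49.7 and 46.4 CPM at day 2 and 66.7 and 57.0 CPM at day 0 (-0.38 ± 0.13, adjusted p = 0.0464), a call lost without day 0 replicate 1 (0.445), day 0 replicate 2 (0.0616) or day 2 replicate 2 (0.323). Trp53 (-0.23 ± 0.09, adjusted p = 0.0837) and Kmt2c (-0.10 ± 0.10, adjusted p = 0.593) were not called. Trp53 was called without day 2 replicate 1, at -0.40 (adjusted p = 0.00202).

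Day 4 BFP negative libraries, which share doxycycline and sorting with the day 2 ones, are compared next. Set directly against BFP negative day 2, without using day 0, 738 genes (6.84%) were called at day 4, 328 higher (3.04%) and 410 lower (3.8%). The day 2 libraries enter this comparison and the one with day 0, so deviations in them act on both with opposite sign. The calls in this comparison were 317 without day 2 replicate 2 and 290 without day 4 replicate 2.

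The leading genes were lower at day 4 than at day 2. Slc16a3 had 3.52 and 3.20 CPM at day 4, a log2 difference from day 2 of -2.27 ± 0.26 (adjusted p = 8.15e-10). Vegfa had 10.8 and 10.4 CPM at day 4, lying between its day 0 and day 2 levels (-1.06 ± 0.19, adjusted p = 6.52e-05). P4ha1 had 32.5 and 34.5 CPM (-1.11 ± 0.12, adjusted p = 8.71e-11) and Ddit4 26.8 and 30.5 CPM (-1.01 ± 0.13, adjusted p = 3.05e-08). All 4 lay above every day 0 library at day 4, but set directly against day 0 the edgeR test called Vegfa (log2 difference 1.29 ± 0.30, adjusted p = 0.00299) and Ddit4 (0.61 ± 0.17, adjusted p = 0.0161) and not Slc16a3 (0.68 ± 0.46, adjusted p = 0.41) or P4ha1 (0.30 ± 0.15, adjusted p = 0.217). Among the 6 lists plotted by day, glycolysis had the lowest median, with 13 of 18 called lower at day 4 than at day 2 and 0 higher, and a median of -0.52. Pfkl had 195 and 174 CPM at day 4 (-0.76 ± 0.08, adjusted p = 1.18e-10), which is below both day 0 libraries. Eno1 had 521 and 465 CPM (-0.66 ± 0.07 from day 2, adjusted p = 4.94e-10), also below both day 0 libraries. Of the 18 glycolysis genes, 4 were called lower at day 4 than at day 0 and 0 higher, where 4.19% of all tested genes were called lower. Of the sterol list 16 of 25 were called lower at day 4 and 0 higher, with a median of -0.41, and of the hypoxia list 8 of 28 were lower and 0 higher. Sqle had 187 and 201 CPM at day 4 (-0.40 ± 0.08, adjusted p = 0.000376).

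Mitochondrial transcripts did not follow that course. At day 4, 1 of the 9 was called higher than at day 2, mt-Rnr2, and 1 lower, mt-Rnr1, and mt-Nd2 had 2441 and 2987 CPM (log2 difference 0.10 ± 0.08, adjusted p = 0.482). Against day 0, the list had 9 of 9 members called higher at day 2 and 8 of 9 at day 4, where 866 genes (8.03%) were called in all, 3.84% higher and 4.19% lower. The mt-Rnr2 call was lost without day 2 replicate 1 (0.385) or day 4 replicate 2 (0.756). Of the ribosome biogenesis list 0 of 31 were called either way between day 4 and day 2, and against day 0 the list had 7 members called lower at day 2 and 13 at day 4. Egr1 was higher still, with 165 and 138.4 CPM at day 4 (1.48 ± 0.11 over day 2, adjusted p = 7.1e-17). Of the NRF2 list, 3 of 18 were called higher at day 4 than at day 2 and 0 lower, among them Nqo1, with 140.4 and 145 CPM at day 4 against 98.1 and 108 CPM at day 2 (0.46 ± 0.09, adjusted p = 0.000608).

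**Figure D4:**
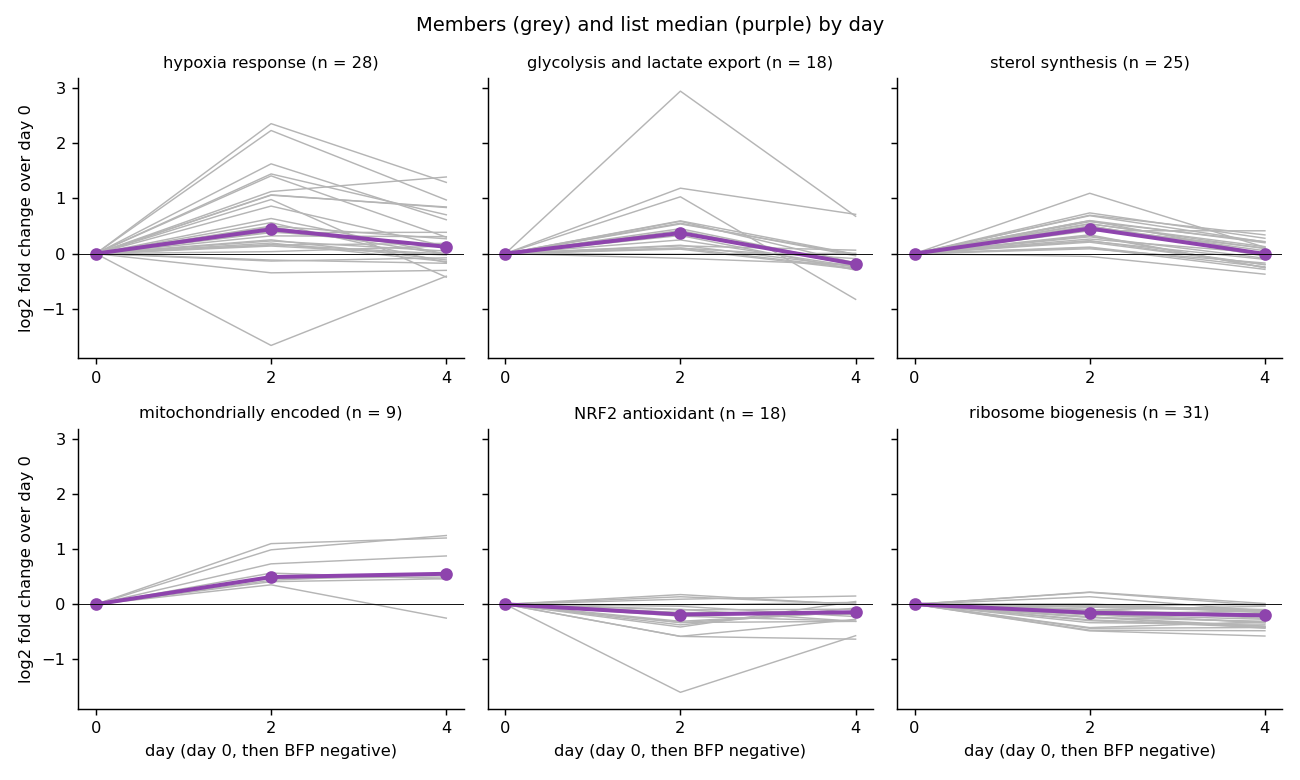
Log2 fold change over day 0 (vertical axis) at days 0, 2 and 4 for each tested member of 6 lists (grey lines) and the list median (purple), days 2 and 4 being BFP negative cells. Medians of the hypoxia, glycolysis and sterol lists stand at 0.44, 0.37 and 0.46 at day 2 and at 0.12, -0.19 and -0.01 at day 4, and the mitochondrially encoded list stands at 0.49 and 0.55.

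BFP positive cells of the same day were sorted for BFP, the sign that the hairpin is switched on. Whether they differ from the BFP negative cells in other ways was not tested. Of the 10791 genes, 672 (6.23%) were called between BFP positive and BFP negative cells at day 2, 324 higher in BFP positive cells (3%) and 348 lower (3.22%), and the count was 434 without BFP negative replicate 1 and 233 without BFP positive replicate 1. The BFP negative day 2 libraries enter this comparison and the one with day 0 on opposite sides, so genes chosen for high levels in them tend to be lower in BFP positive cells. Of the lists, 3 of 28 hypoxia genes were called higher in BFP positive cells and 1 lower, 4 of 18 glycolysis genes higher and 1 lower, and 2 of 25 sterol genes higher and 1 lower, where 3% of all tested genes were called higher and 3.22% lower.

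Several leading genes had lower levels in BFP positive cells. Cdh19 had 4.13 and 3.41 CPM in BFP positive day 2 cells, against 21.4 and 24.2 CPM in BFP negative day 2 cells (log2 difference -2.56 ± 0.30, adjusted p = 4.1e-09). The BFP positive libraries lay below both day 0 libraries. Set directly against day 0, the edgeR test did not call Cdh19 in BFP positive cells (-0.31 ± 0.44, adjusted p = 0.678). Cerk had 6.20 and 8.18 CPM in BFP positive cells and 20.98 and 26.1 CPM in BFP negative cells (-1.81 ± 0.26, adjusted p = 1.08e-06). Basp1 had 33.4 and 23.2 CPM in BFP positive cells and 75.8 and 77.4 CPM in BFP negative cells (-1.37 ± 0.15, adjusted p = 5.71e-10), and Apoe had 51.0 and 54.5 CPM in BFP positive cells and 138.3 and 127.1 CPM in BFP negative cells (-1.33 ± 0.13, adjusted p = 8.83e-12). For these genes BFP negative day 2 cells stood above both BFP positive day 2 cells and day 0 cells. Within the pathways, Eno2 had 3.10 and 2.04 CPM in BFP positive cells and 14.1 and 12.6 CPM in BFP negative cells (-2.25 ± 0.39, adjusted p = 4e-05). Egln1 had 5.51 and 2.73 CPM in BFP positive cells and 20.98 and 21.2 CPM in BFP negative cells (-2.20 ± 0.29, adjusted p = 1.18e-07). No difference was detected for others. Vegfa measured 27.5 and 30.0 CPM in BFP positive cells and 21.8 and 22.2 CPM in BFP negative cells (0.37 ± 0.20, adjusted p = 0.305), and Slc16a3 18.2 and 17.7 CPM in BFP positive cells and 15.4 and 16.3 CPM in BFP negative cells (0.18 ± 0.23, adjusted p = 0.75). Mitochondrial transcripts were higher in BFP positive cells for 7 of the 9, among them mt-Nd5 with 2045 and 2119 CPM in BFP positive and 1571 and 1578 CPM in BFP negative cells (0.40 ± 0.07, adjusted p = 0.00011). Of 26 tested ATF4 targets, which respond to amino acid shortage, 13 were called higher in BFP positive than in BFP negative cells and 0 lower, whereas 1 was called higher and 1 lower in BFP negative day 2 cells relative to day 0.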

How the data were processed

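The members are the 4 libraries given by their titles, and they, the gene lists and the tests were chosen with earlier results of these data known. The deposited table gives raw whole-number read counts for each gene. Per the labels' protocols, polyA RNA was made into TruSeq libraries and sequenced as single-end reads of 76 bases. The submitters' processing notes list, with no order, STAR 2.6.1a, featureCounts 1.6.3, Trimmomatic 0.36, FastQC 0.11.5 and mm10 or GRCm38, whereas the labels' protocols name HTSeq, RPKM and hg19. Of 53274 genes also in GENCODE M21 of GRCm38, 51335 have the same coordinates there. Strand use and multi-mapping rules: not given in the sources used here. The deposited gene length (another unit, in bases, source not given) entered only a length correction.

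The filterByExpr function, given the 7 groups, kept 10791 of 53465 genes. Counts were scaled by TMM and tested with edgeR 4.0.16 in R 4.3.3 (glmQLFit and glmQLFTest, two-sided). It was 1 model over 14 libraries with group as its only term. The model had 7 residual degrees of freedom and 57.63 prior ones borrowed across genes, so small p-values rest largely on that shared spread. CPM (counts-per-million) use the counts of tested genes and TMM, and marker levels and sums use the library total. No exact permutation test was run, since 2 against 2 allows no p under 0.333. Replicate totals over all libraries ran from 913482 to 10271698 counts, and a count of 0 allows 3 counts (95%, counting error only). On simulated counts for the 10791 genes in this comparison, 26%, 60%, 92% and 100% of genes changed by 1.25, 1.5, 2 and 4-fold were recovered, with 4.79% of calls false. The changed genes, 50 per fold, were drawn from those with higher counts, so recovery of genes with few counts was not tested. The simulation gave all groups the same spread, whereas the day 2 replicates differed more than the day 0 replicates, so both rates may be too favourable. Named genes were the 12 with the largest change each way among called genes with a mean of at least 10 CPM and groups that did not overlap, the markers Vegfa, Slc16a3 and Cxxc5, the engineered and targeted genes, and up to 4 called members per list with the smallest adjusted p. Some of the genes so chosen are not reported here. Other names were chosen after their values were seen: the further members of the 6 lists plotted by day, list members given as not called, Eno2, Egln1 and the genes under Other observations. Promoter sequences are from RefSeq. Alternatives were other scalings, filters, DESeq2 1.42.0, smaller sets of libraries, thinned counts, each replicate left out, a replicate block, and, chosen after seeing the data, a gene length offset and leaving out mitochondrial genes.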

Additional observations from a re-analysis of the deposited data

Results flagged for a closer look

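Leading genes whose BFP negative day 2 level differed from a second sorted group, by the edgeR test of that difference, are given here. The BFP negative day 2 libraries that entered the choice of these genes are also the baseline of both tests, which by itself favours a difference of opposite sign. Between BFP negative cells at day 4 and at day 2, the log2 difference was -1.78 for Cxxc5, -2.27 for Slc16a3, -1.06 for Vegfa, -1.29 for Cdh19, -1.32 for Basp1, -0.84 for Perp and -1.01 for Ddit4. It was -1.36 for Cited1, -1.29 for Ly6e, -0.79 for Apoe, -1.11 for P4ha1, -0.63 for Chst1, -1.02 for Cerk and -0.87 for Zic2. All 14 leading genes that rose at day 2 were thus called lower at day 4. The calls of Chst1 (without day 2 replicate 1 or day 4 replicate 2, adjusted p 0.216 and 0.299), Cerk (without day 2 replicate 2, 0.0725) and Zic2 (without day 2 replicate 2 or day 4 replicate 2, 0.119 and 0.0706) were lost when a library was left out.

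Of the 12 leading genes that fell at day 2, 5 were called higher at day 4 than at day 2: Yap1 by 1.37, Col1a2 by 1.19, Sema4a by 1.03, Pea15a by 0.99 and B4galt6 by 0.98 on the log2 scale. Sema4a lost its call without day 2 replicate 2 (adjusted p 0.135).

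Between BFP positive and BFP negative cells at day 2, the log2 difference was -2.56 for Cdh19, -1.37 for Basp1, -0.99 for Perp, -0.97 for Ly6e, -1.33 for Apoe and -1.81 for Cerk. It was 0.62 for Ddit4, a call lost without BFP positive replicate 1 (adjusted p 0.244) and with DESeq2 (0.114), and 1.56 for Yap1. Yap1 measured 22.7 and 25.2 CPM in BFP positive day 2 cells, against 5.995 and 9.10 CPM in BFP negative day 2 cells, and the BFP negative day 2 libraries were also below the day 0 and BFP negative day 4 libraries (16.3 and 16.01 CPM at day 0, 21.2 and 20.5 CPM at day 4).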

How the results depend on the processing

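Counts of calls moved by more than 1.5 times only with DESeq2 and when a replicate was left out, among the alternatives run. The cause was not tested. With DESeq2, BFP negative day 2 against day 0 gave 293 calls (146 higher, 147 lower), 6 hypoxia genes, 5 glycolysis genes and 4 NRF2 genes, BFP negative day 4 against day 2 gave 131 (51 higher, 80 lower), and BFP positive against BFP negative at day 2 gave 190 (100 higher, 90 lower). Leaving out 1 library at a time, BFP negative day 2 against day 0 gave 330 to 1230 calls (201 to 571 higher and up to 659 lower, with the fewest lower calls, the remainder of the 330, without day 2 replicate 2), with 6 to 8 hypoxia, 6 to 7 glycolysis, 8 to 10 sterol and 7 to 9 mitochondrially encoded genes higher and 3 to 7 NRF2 and 3 to 9 ribosome biogenesis genes lower. BFP negative day 4 against day 2 gave 290 to 776 (121 to 323 higher, 150 to 453 lower), and BFP positive against BFP negative gave 233 to 623 (115 to 307 higher, 118 to 316 lower). With 1 library left in an arm, that library is assumed to vary like the other groups. No label says that replicate numbers pair the libraries. The correlation of same-numbered deviations was 0.03 between day 2 and day 0 and 0.251 between BFP negative day 4 and day 2. With a replicate block these comparisons gave 1197 calls (611 higher, 586 lower) and 855 calls (385 higher, 470 lower), and BFP positive against BFP negative cells gave 723. Thinning all 4 libraries to equal depth gave 834 calls, and the gene length offset 1120. For single genes, Kmt2c, at -0.10, was at -0.22 to 0.035 with a replicate left out and above 0 without day 2 replicate 2, Trp53 gained a call in 1 setting, and calls were lost 370 times over 3013 gene and setting pairs. Depth limits the fold changes of genes with few counts, such as Cxxc5.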

Other observations

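Genes outside the named lists were examined after their values were seen. Vim, vimentin, had 333 and 346 CPM at day 2 and 564 and 560.1 CPM at day 0 (log2 fold change -0.73 ± 0.08, edgeR adjusted p = 3.07e-11). Actb, beta-actin, had 1960.0 and 1773 CPM at day 2 and 2645 and 2555 CPM at day 0 (-0.48 ± 0.07, adjusted p = 1.63e-06), Actg1, gamma-actin, 208 and 168 CPM at day 2 and 304 and 298 CPM at day 0 (-0.70 ± 0.09, adjusted p = 4.11e-08), and Flna, filamin A, 739.5 and 599 CPM at day 2 and 956 and 967 CPM at day 0 (-0.53 ± 0.08, adjusted p = 8.47e-07). The Actb difference kept its direction and call under every scaling tried. Xist, the noncoding RNA that coats the inactive X chromosome, had 692 and 657 CPM at day 2 and 1353 and 1212 CPM at day 0 (-0.93 ± 0.09, adjusted p = 8.22e-13), and 1654 and 1906 CPM in BFP negative day 4 cells, which was 1.40 ± 0.09 over day 2 (adjusted p = 1.53e-20).

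Of 75 tested cytosolic ribosomal protein genes, 29 (38.7%) were called higher and 0 lower, with a median log2 fold change of 0.19. Among all tested genes 5.33% were called higher and 4.98% lower. Rps12 had 2319 and 2818 CPM at day 2 and 1956 and 1912 CPM at day 0 (0.41 ± 0.08, adjusted p = 8.51e-05, and 0.0657 without day 2 replicate 2). Rpl39 had 355 and 455 CPM at day 2 and 269.7 and 300.0 CPM at day 0 (0.52 ± 0.09, adjusted p = 6.51e-05, and 0.104 without day 2 replicate 2). Of 124 tested pseudogenes, 0 were called higher and 16 (12.9%) lower, with a median of -0.20. The called pseudogenes were weakly expressed, with day 2 means from 0.914 CPM for Gm43712 to 11.96 CPM for Gm13436. Rpl31-ps8, a ribosomal protein pseudogene, had 2.997 and 3.50 CPM at day 2 and 11.00 and 15.2 CPM at day 0 (-1.96 ± 0.34, adjusted p = 2.74e-05). Ribosomal protein genes have near-identical copies, so the division of reads between parent genes and pseudogenes is uncertain.

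Change followed gene length weakly. In 3 equal groups of tested genes by deposited length, the shortest had a median log2 change of 0.06 with 223 called higher and 109 lower, and the longest had -0.03 with 152 higher and 269 lower. Day 2 replicate 2 differed more between shortest and longest, at 0.08 and -0.04 from the day 0 mean, than day 2 replicate 1, at 0.03 and -0.01.

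Calls in the other lists are given as higher and lower at day 2, where 5.33% of all tested genes were called higher and 4.98% lower. They were 2 and 0 of 74 mitochondrial ribosome genes, 1 and 1 of 15 cell cycle inhibitors and G1 cyclins, 2 and 0 of 18 interferon response genes, 3 and 1 of 16 heat shock genes, 2 and 0 of 19 endoplasmic reticulum folding genes, 2 and 2 of 29 lysosome and autophagy genes, 2 and 3 of 30 genes of the tricarboxylic acid cycle and 2-oxoacid dehydrogenases, 2 and 2 of 20 iron and heme genes, 2 and 0 of 9 stem and progenitor genes, 2 and 0 of 12 polyA-poor histone genes and 1 and 1 of 11 CXXC zinc finger genes. Hspa8, the constitutive HSC70 chaperone, had 2549 and 2705 CPM at day 2 and 1860.0 and 1892 CPM at day 0 (0.49 ± 0.07, adjusted p = 4.13e-07).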
